A study of Homo sapiens with 6 samples.

Results

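The genes described here are the epidermal growth factor (EGF) family ligands AREG, EREG, HBEGF, TGFA and BTC, the receptors EGFR, ERBB2 and ERBB3, and the receptor inhibitor ERRFI1. They were chosen by symbol, and all 9 were found among the 26364 genes of the deposited table. Transcript levels came from RNA-seq of Calu3, a human lung adenocarcinoma line, in 3 libraries treated with a negative control siRNA and 3 with siRNA against BRD8, each labelled with 20 nmol of siRNA and transfected with the same reagent. BRD8 is a bromodomain protein that works within the NuA4/TIP60 complex, which acetylates histones. The labels name no other allele or agent. The comparison asks which transcripts differ when BRD8 is targeted in a lung epithelial line. With 1 reagent against BRD8 and 1 cell line, effects of the siRNA apart from loss of BRD8 cannot be told apart from it.

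EGF ligands are made as membrane proteins, and proteases cut them free to bind receptors on the same or neighbouring cells. AREG, TGFA and EGF bind EGFR alone, while HBEGF, EREG and BTC can also bind ERBB4. ERBB2 has no known ligand and acts as a partner in receptor pairs. ERBB3 binds neuregulins and has little kinase activity of its own. Active pairs signal through RAS and ERK and through PI3K and AKT. In airway epithelium this pathway is known for its part in wound repair and mucin production, and Calu3 is known for an amplified ERBB2 gene.

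Each value below is a normalized count, that is, the reads of a gene divided by the authors' size factor for its library. The libraries held 33640814 to 37896467 reads, and a floor of 3 reads came to between 2.84 and 3.24 normalized counts, so depth did not limit any of the 9 genes. Epithelial markers were high in every library, summing to 337934 to 426241 in control and 443017 to 501815 in BRD8 siRNA libraries. KRT8 and CDH1 rose (log2 fold change 0.41 and 0.49, adjusted p = 0.0313 and 0.00394, limma), the other 4 did not pass, and EPCAM was at 21509 ± 1166 in control and 21433 ± 1028 in BRD8 siRNA libraries (mean ± SD, n = 3 each). PTPRC, the pan-leukocyte marker, stayed at or under 5.40, and COL1A2, a fibroblast collagen, was at 0. Summed immune markers ranged from 1339 to 1732 in control and from 1798 to 2116 in BRD8 siRNA libraries, nearly all of it CD68, which rose (adjusted p = 0.0390, limma). Summed endothelial markers were 4.32 to 11.2 and 11.4 to 13.5, and fibroblast markers 183 to 202 and 159 to 173, most of the latter from COL1A1. The part of these marker differences in the results below was not tested, and in bulk RNA fewer cells of a type and less RNA per cell cannot be told apart. BRD8 was 2.46-fold lower in the libraries treated against it (adjusted p = 1.13e-04, limma). Control library 2 stood apart from the other 5 on the second principal component, which held 20.6% of the variance, and results that rest on it are given with and without it. Nothing in the labels ties the libraries to separate cultures, and p-values then reflect only how far these 6 libraries vary, possibly for technical reasons.

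HBEGF, ERRFI1 and TGFA rose after BRD8 siRNA, and none of the 9 genes fell. ERBB2 had a log2 fold change of 0.29 and just missed the threshold. The abundant ligands AREG and EREG, and BTC, EGFR and ERBB3, did not pass the test. The 3 rises among 9 genes stand beside 10.1% of all 15354 genes tested that rose and 8.93% that fell (limma on log2 of the normalized count plus 1, Benjamini-Hochberg adjusted p under 0.05). The median log2 fold change was 0.11 over the 9 genes and -0.01 over all genes, and the former went to 0.21 when control library 1 was left out and to 0.04 when control library 3 was. At an unadjusted p under 0.05, 4 of the 9 were higher and 0 lower, against 16.8% and 16.3% of all genes. edgeR's quasi-likelihood test called 3 higher and 0 lower, against 10.7% and 8.66% of all genes, and DESeq2 4 and 0, against 11.2% and 10.5%. The BRD8 siRNA libraries lay wholly above the control libraries for 4 of the 9 and wholly below for 1, against 18.9% and 17.9% of all genes. Without control library 2, 4 rose and 2 fell, against 15.9% and 18.1% of all genes.

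**Figure D1:**
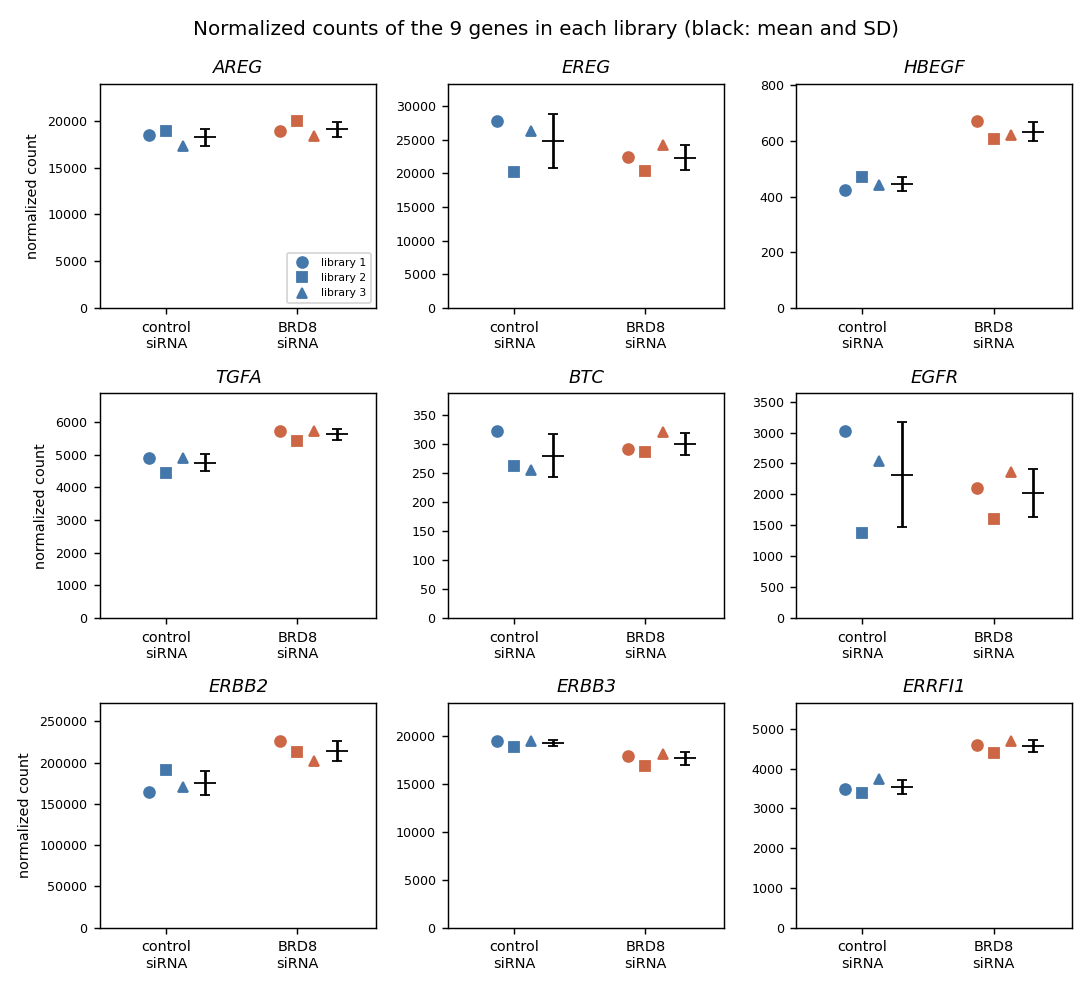
Normalized counts (y axis, from 0) of each of the 9 genes in the 3 control siRNA (blue) and 3 BRD8 siRNA (orange) libraries, with the mean and SD in black and symbols for library number. HBEGF, TGFA, ERBB2 and ERRFI1 have groups that do not overlap, with BRD8 siRNA above, and control library 2 is the lowest point for EGFR at 1381.

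The regulatory sequence before the start site is shown for HBEGF and ERRFI1, which had the smallest adjusted p-values, and for AREG and EREG, which are the most abundant ligands and did not pass the test. RefSeq promoters on GRCh38.p14, another build than that of the data, matched 8 of the 9 genes, with none for ERBB3. Capitals mark motifs found by a search of both strands over the 250 bases before the start site: TATAAA (the TATA box), TGACGTCA (the cyclic AMP response element), TGANTCA (AP-1), GCGNGGGCG (EGR1), GGGCGG (the GC box), CCGGAAGT (ETS factors) and the CArG box of serum response factor. None of the 7 motifs can be read as a used site from a letter match. Bases that GENCODE v29 places in an exon of the gene were left off, and overlapping matches run together.
HBEGF, chr5:140346632-140346753, minus strand: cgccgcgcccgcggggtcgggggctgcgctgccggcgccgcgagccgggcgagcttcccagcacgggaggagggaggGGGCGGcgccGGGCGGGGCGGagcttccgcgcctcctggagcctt
ERRFI1, chr1:8026310-8026459, minus strand: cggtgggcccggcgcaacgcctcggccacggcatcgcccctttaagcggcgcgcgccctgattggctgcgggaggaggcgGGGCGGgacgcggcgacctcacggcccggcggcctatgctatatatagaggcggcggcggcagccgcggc
AREG, chr4:74444986-74445133, plus strand: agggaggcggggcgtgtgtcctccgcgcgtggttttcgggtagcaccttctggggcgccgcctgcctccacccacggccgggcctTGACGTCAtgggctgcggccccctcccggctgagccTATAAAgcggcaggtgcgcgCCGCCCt
EREG, chr4:74364995-74365142, plus strand: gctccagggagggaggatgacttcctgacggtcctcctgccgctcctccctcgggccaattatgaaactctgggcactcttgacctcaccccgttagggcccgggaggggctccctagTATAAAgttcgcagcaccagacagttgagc

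The HBEGF window held 5 GC boxes in 250 bases, 3 of them in the stretch printed, and no TATAAA. ERRFI1 and AREG held 1 GC box each, EREG, BTC and ERBB2 held none, EGFR held 2 at the first of its start sites, and TGFA held 3 or 0 by start site. AREG and EREG held TATAAA, at 29 and 32 bases before the start, as did the second EGFR start site, 2 times, and AREG also held TGACGTCA at 65 bases. Among 35116 RefSeq promoters 42.6% held GGGCGG, 10.7% TATAAA and 1.65% TGACGTCA. The EGR1 motif and the CArG box, which 8.41% and 1.16% of all promoters held, were in none of the 8 genes' windows, and no match says only that these letters are absent there. AP-1 letters (6.57% of promoters) were found for ERBB2 and for the second of the EGFR start sites. The ETS motif (3.42%) was found 2 times for ERBB2, at 27 and 14 bases before the start RefSeq lists first. Only that ERBB2 start was searched, so what was and was not found for ERBB2 does not describe any other start of the gene. In RefSeq order EPGN, EREG, AREG and BTC are consecutive protein-coding genes on chromosome 4, so 3 of the ligands described here are neighbours.

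Levels were compared between genes per kilobase of the longest coding transcript in GENCODE v29. ERBB2 was by far the most abundant, at 36550 ± 2957 normalized counts per kilobase in control libraries, rank 52 of 14358 genes tested with a known length, and the fifth gene of all by plain normalized count. It was followed by AREG at 14690.5 ± 695, EREG at 5367 ± 863 and ERBB3 at 3257 ± 57.0 per kilobase. ERRFI1 (1139.6 ± 59.0) and TGFA (1101 ± 60.4) came next and did not differ beyond their spread in control libraries. EGFR (236 ± 86.2) and HBEGF (187 ± 10.1) overlapped only through control library 2, at 141 and 197 per kilobase. In control libraries 1 and 3 EGFR was at 308 and 259 and HBEGF at 177 and 185. BTC was lowest at 99.3 ± 13.2. With the merged length of all annotated exons instead, the order was the same except that TGFA stood above ERRFI1. After BRD8 siRNA, HBEGF at 255 to 281 per kilobase lay above EGFR at 164 to 240. Among the 5 ligands AREG made 68.5% ± 3.70 of the summed level per kilobase in control and 70.2% ± 2.35 in BRD8 siRNA libraries, with groups that overlapped.

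**Figure D2:**
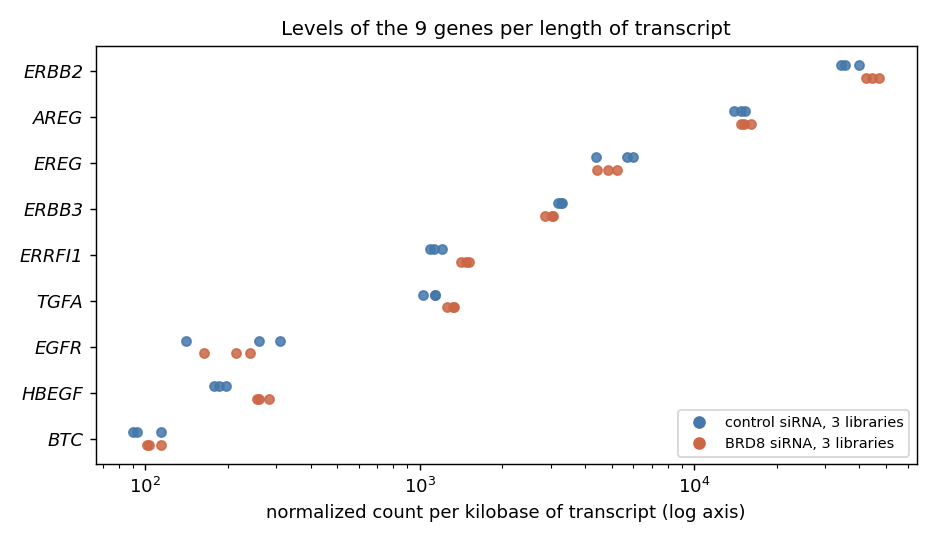
Normalized counts per kilobase of transcript (log x axis) of the 9 genes in the 3 control siRNA (blue) and 3 BRD8 siRNA (orange) libraries, ordered by the control mean. ERBB2 and AREG are highest and BTC lowest. EGFR overlaps HBEGF in control libraries only through control library 2, and lies below HBEGF in BRD8 siRNA libraries.

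HBEGF, a heparin-binding ligand that engages EGFR and ERBB4, had the largest change of the 9. Its normalized counts were 423, 471 and 442 in control libraries 1, 2 and 3 and 672, 609 and 622 in the BRD8 siRNA libraries. Every BRD8 siRNA library was above every control library, and the means differed 1.42-fold. On the log2 scale the rise was 0.51, with an SE of 0.0878 (adjusted p = 0.00532, limma). Its share of the ligands' summed level per kilobase went from 0.872% ± 0.0733 to 1.21% ± 0.0712, so it remained a minor transcript beside AREG. HBEGF passed the test in each fit that left out a library, at adjusted p between 9.90e-04 and 0.0315.

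TGFA encodes transforming growth factor alpha, a ligand of EGFR. Control libraries held 4909, 4447 and 4885 normalized counts and BRD8 siRNA libraries 5729, 5418 and 5718. The groups did not overlap, and the rise was 0.24 on the log2 scale (SE 0.0714, adjusted p = 0.0439, limma). Its share of the ligands' summed level per kilobase was 5.14% ± 0.237 in control and 5.96% ± 0.243 in BRD8 siRNA libraries, without overlap. The call depended on which libraries were used. Leaving out control library 2 kept it (adjusted p = 0.0344), and leaving out control library 1 or 3 or BRD8 library 1, 2 or 3 ended it, at 0.0714, 0.120, 0.119, 0.0971 and 0.149.

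AREG, or amphiregulin, a ligand of EGFR, was level between the groups. It stood at 18434, 18948 and 17266 normalized counts in control and 18878, 19964 and 18363 in BRD8 siRNA libraries, and the groups overlapped. The log2 fold change was 0.07, with a 95% interval of -0.10 to 0.23 (limma, adjusted p = 0.565). The build named for these data holds a near-identical second copy of AREG while the table has 1 AREG line, so its counts are uncertain to the extent that reads matched both copies.

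EREG, or epiregulin, was the ligand with the highest plain count and varied more between libraries. Control libraries held 27767, 20259.5 and 26348 normalized counts and BRD8 siRNA libraries 22377, 20418 and 24221. Control library 2 was the lowest of the 6, and the BRD8 siRNA libraries lay between it and the other two control libraries. The log2 fold change was -0.14 (95% interval -0.42 to 0.14, adjusted p = 0.474, limma). Without control library 2 it was -0.28, and EREG fell at adjusted p = 0.0187. After removal of the trend on length and GC content, with all 6 libraries, it was -0.04 (adjusted p = 0.626, limma).

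BTC, or betacellulin, was the scarcest ligand. Its normalized counts were 322, 262 and 254 in control and 291, 286 and 321 in BRD8 siRNA libraries. Control library 1 was the highest of all, the groups overlapped, and the log2 fold change was 0.11 (95% interval -0.16 to 0.37, adjusted p = 0.580, limma).

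Of the receptors, EGFR, which binds all 5 of these ligands, had the widest spread. Control libraries held 3027, 1381 and 2548 normalized counts and BRD8 siRNA libraries 2095, 1607 and 2360. Control library 2 was 1.01 lower than the mean of the other control libraries on the log2 scale, while ERBB3 differed there by -0.04 and AREG by 0.09. With all libraries the log2 fold change was -0.14 (95% interval -0.74 to 0.46, adjusted p = 0.750, limma). It was -0.48 and passed the test without control library 2 (adjusted p = 0.0196), and it was 0.09 without control library 1 and 0.02 without BRD8 library 2, neither of which passed (adjusted p = 0.851 and 0.981). EGFR has the longest transcript of the 9, at 9821 bases, and its exons overlap the antisense gene EGFR-AS1, and the library kit named in the labels does not mark strand, so reads of the pair cannot be told apart. In control library 2 the long transcripts of ERBB4 and NF1 differed from the other control libraries by -0.85 and -0.80 on the log2 scale, and CBL by -0.62. After removal of each library's trend on length and GC content, the EGFR log2 fold change was -0.04 (adjusted p = 0.896, limma).

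ERBB2, the partner receptor without a ligand, held 163833, 191041 and 170571 normalized counts in control libraries and 226537, 213004 and 201996 in BRD8 siRNA libraries. All BRD8 siRNA libraries were above all control libraries, of which library 2 was the highest. The difference on the log2 scale was 0.29 (SE 0.0911, 95% interval 0.08 to 0.50), with an unadjusted p of 0.0116 and an adjusted p = 0.0565 in limma. It passed in DESeq2 (adjusted p = 0.0133) and in the authors' deposited table (adjusted p = 0.0149, log2 fold change 0.29), and without control library 2 (adjusted p = 0.00568, log2 fold change 0.35). Quantile normalization gave 0.15 with an adjusted p of 0.104 in limma. ERBB2 also did not pass in edgeR (adjusted p = 0.0537). In limma it did not pass with a pseudocount of 5 (adjusted p = 0.0602) or without a filter on low counts (0.184). Nor did it pass when any library but control library 2 was left out (0.107 to 0.199). Exons of ERBB2 overlap 571 bases of MIEN1 and 194 bases of PGAP3 on the other strand, and these neighbours held 27809 ± 2934 and 21287 ± 3087 normalized counts in control libraries, far below ERBB2.

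ERBB3, the neuregulin receptor, went the other way at a small size. Its normalized counts were 19508, 18892 and 19436 in control and 17923, 16899 and 18150 in BRD8 siRNA libraries. It was the only member of the 9 whose BRD8 siRNA libraries all lay below the control libraries. The log2 fold change was -0.13 (95% interval -0.28 to 0.02, adjusted p = 0.221, limma) and did not pass. The ratio of ERBB2 to ERBB3 per kilobase was 10.4, 12.5 and 10.8 in control libraries and 15.6, 15.6 and 13.7 in BRD8 siRNA libraries. These ratios did not overlap and were not tested.

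ERRFI1 encodes MIG6, a cytoplasmic protein that binds and inhibits the kinases of EGFR and ERBB2 and is itself induced by their signalling. It held 3485, 3386 and 3741 normalized counts in control libraries and 4588, 4392 and 4699 in BRD8 siRNA libraries. The groups did not overlap, the means differed 1.29-fold, and the rise on the log2 scale was 0.37 (SE 0.0712, adjusted p = 0.00875, limma). The call held in each fit that left out a library, with adjusted p from 0.00339 to 0.0496. A short stretch of its exons overlaps an antisense gene.

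**Figure D3:**
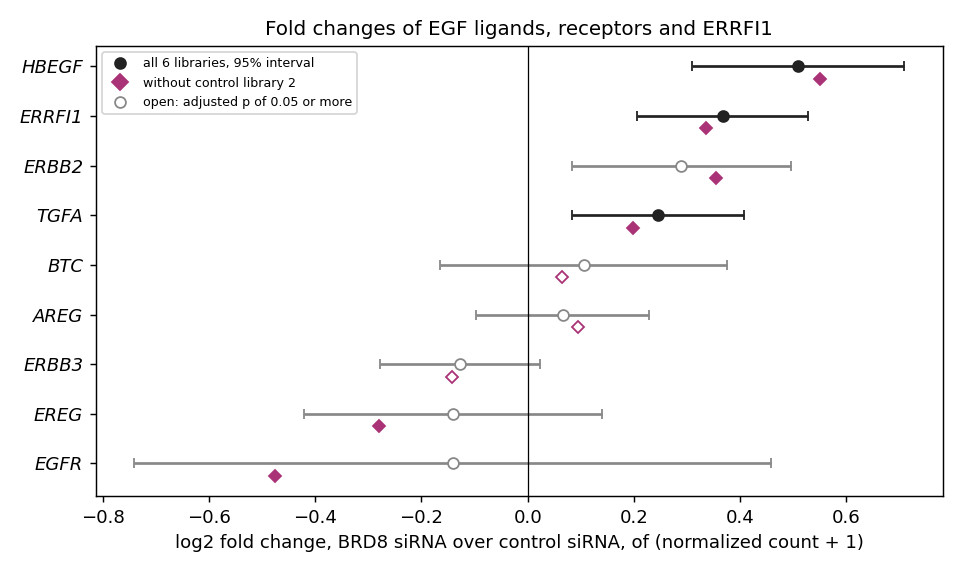
Log2 fold change of the normalized count plus 1, BRD8 siRNA over control (x axis), of the 9 genes with all 6 libraries (circles, 95% intervals) and without control library 2 (diamonds), filled where the adjusted p was under 0.05. HBEGF, ERRFI1 and TGFA are filled in both fits, and EGFR moves from -0.14 to -0.48 and EREG from -0.14 to -0.28.

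Other genes of the pathway were read from 5 lists by role. Over these lists 10 of the 64 genes tested rose and 5 fell, with a median log2 fold change of -0.05, against 10.1% and 8.93% of all genes. Leaving out control library 1 or BRD8 library 1 gave 6 rises, in fits where 1065 and 1142 of all genes rose. Leaving out control library 3 or BRD8 library 2 or 3 gave 4, where 832, 894 and 871 of all genes rose. With all 6 libraries 1549 of all genes rose. Leaving out control library 2 gave 15 falls, in a fit where 18.1% of all genes fell. The median turned to 0.0047 without control library 1 and to 0.01 after removal of a trend on transcript length and GC content. Of the other ligands and ERBB4, EGF and EPGN were too low to test, with means of 3.38 and 9.13 normalized counts in control libraries. None of the 5 tested, NRG1, NRG2, NRG3, NRG4 and ERBB4, passed in limma, edgeR or DESeq2, and 0 had an unadjusted p under 0.05. The neuregulins NRG1 and NRG3, which bind ERBB3 and ERBB4 or ERBB4, had log2 fold changes of -0.19 (adjusted p = 0.158) and 0.20 (adjusted p = 0.272, limma).

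Among all genes 10.1% rose and 8.93% fell. Of 6 genes that cut ligands free or serve the cutting protease, 3 rose and 0 fell, with a median of 0.30. These were FRMD8, which stabilises the sheddase complex, from 1503 ± 82.6 to 1903 ± 95.2 normalized counts (adjusted p = 0.0174, limma), the ADAM17 cofactor RHBDF2, from 775 ± 50.3 to 974 ± 46.2 (adjusted p = 0.0272), and the rhomboid protease RHBDL2, from 249 ± 8.28 to 325 ± 24.8 (adjusted p = 0.0306). The ADAM proteases did not pass, with log2 fold changes of -0.29 for ADAM10 (adjusted p = 0.0998) and 0.10 for ADAM17 (adjusted p = 0.558). At an unadjusted p under 0.05, 4 were higher and 1 lower, beside 16.8% and 16.3% of all genes. Both edgeR and DESeq2 called 3 higher and 0 lower. The shares of all genes were 10.7% and 8.66% in edgeR and 11.2% and 10.5% in DESeq2. Rises numbered 2 with control library 1 or BRD8 library 1 left out. They numbered 0 with control library 3 or BRD8 library 2 left out and 1 with BRD8 library 3 left out. Over all genes, rises in these fits numbered 832 to 1142, against 1549 with all 6 libraries. With control library 2 left out 4 genes of the list rose and 1 fell, in a fit where 15.9% of all genes rose and 18.1% fell. Without a filter on low counts RHBDL2 lost its call (adjusted p = 0.0504, limma).

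Among 23 adaptors, kinases and RAS genes, 3 rose and 1 fell, beside 10.1% and 8.93% of all genes. The list's median was -0.06, but 0.02 both without control library 1 and after the trend on length and GC was removed. STAT3, a transcription factor that receptor kinases activate, held 4864 ± 371 normalized counts in control and 6205 ± 207 in BRD8 siRNA libraries, a rise of 0.35 on the log2 scale (adjusted p = 0.0148, limma). The adaptor SHC1, which carries receptor signals to RAS, rose from 2069 ± 106 to 2533 ± 74.3 (adjusted p = 0.0238), and PIK3R2, a regulatory subunit of PI3K named after its value was seen, rose by 0.29 on the log2 scale. PIK3R2 shares most of its exon bases with an overlapping gene on the same strand. NRAS, 1 of the RAS genes, fell, with 3812 ± 381 normalized counts in control and 2859.8 ± 153 in BRD8 siRNA libraries (log2 fold change -0.41, adjusted p = 0.0148). The list had 1 rise when control library 1 or 3 or BRD8 library 1 or 2 was absent and 0 when BRD8 library 3 was. It had 0 falls when control library 1 or 3 or BRD8 library 1 or 2 was absent and 6 when control library 2 was. In that last fit 18.1% of all genes fell. With any library but control library 2 absent, 832 to 1142 of all genes rose and 528 to 838 fell. With all 6 libraries 1549 rose and 1371 fell. NRAS did not pass when control library 1 or 3 or BRD8 library 1 or 2 was absent (adjusted p = 0.0524, 0.0777, 0.0523 and 0.0643, limma), nor STAT3 when BRD8 library 3 was (0.0722). SHC1 and PIK3R2 passed only when all libraries were used or when control library 2 was the one left out, and otherwise had adjusted p of 0.0662 to 0.101 and 0.0597 to 0.131.

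Of 18 inhibitors of the receptors and of ERK, 0 rose and 3 fell, with a median of -0.09. Of all genes, 10.1% rose and 8.93% fell. CBL, a ubiquitin ligase that marks active EGFR for breakdown, held 2223, 1393 and 2053 normalized counts in control and 1056, 789 and 1009 in BRD8 siRNA libraries. The groups did not overlap, and CBL had a log2 fold change of -0.97 (SE 0.179, adjusted p = 0.00700, limma). LRIG1, a membrane protein that lowers the level of ERBB receptors, held 1481, 1431 and 1478 in control and 1127, 964 and 968 in BRD8 siRNA libraries (log2 fold change -0.52, adjusted p = 0.00410). UBASH3B, a phosphatase that binds CBL, went from 8586 ± 761 to 5563 ± 203 normalized counts (log2 fold change -0.62, adjusted p = 0.00163). Binding of UBASH3B to CBL is also known to slow the breakdown of EGFR, so UBASH3B is not only an inhibitor. Each of these 3 passed in every fit that left out a library. The ERK phosphatase DUSP6 was level, at 2404 ± 20.2 and 2411 ± 43.5 normalized counts (log2 fold change 0.00, 95% interval -0.14 to 0.15), and was named after its value was seen. At an unadjusted p under 0.05, 3 of the 18 were higher and 5 lower, beside 16.8% and 16.3% of all genes. edgeR called 1 higher and 3 lower, beside 10.7% and 8.66% of all genes. DESeq2 called 1 higher and 5 lower, beside 11.2% and 10.5%. Without control library 2, 1 rose and 7 fell, while the share of all genes that fell was 18.1% instead of 8.93%, and the list's median was -0.14. Exons of CBL overlap those of MCAM, and those of LRIG1 overlap SLC25A26, on the other strand.

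Among 12 transcripts that ERK signalling is known to raise, 4 rose and 1 fell, beside 10.1% and 8.93% of all genes. The list's median was 0.02, and it turned to -0.01 with control library 3 left out and -0.02 with BRD8 library 2 left out. The immediate early factor EGR1 held 1553, 1609 and 1781 normalized counts in control and 3480, 3301 and 3473 in BRD8 siRNA libraries (log2 fold change 1.05, SE 0.0773, adjusted p = 1.34e-04, limma), and FOS rose by 0.95 (adjusted p = 3.88e-04). The Eph receptors EPHA4 and EPHA2, named after their values were seen, rose by 0.80 and 0.23 on the log2 scale, and EPHA2 no longer passed when any library but control library 2 was left out (adjusted p = 0.0952 to 0.136). ETV5, an ETS factor, went down from 2926 ± 131 to 1696 ± 214 normalized counts (log2 fold change -0.79, adjusted p = 0.00123), and its relative ETV4 had a log2 fold change of -0.25 (adjusted p = 0.184). MYC, CCND1, PHLDA1, FOSL1, IER3 and MCL1 did not pass. The DUSP and SPRY genes, which ERK signalling also raises, were counted among the inhibitors instead, and none of them passed in limma. Log2 fold changes were -0.04, -0.08 and 0.00 for DUSP4, DUSP5 and DUSP6 and -0.08, -0.18 and -0.14 for SPRY1, SPRY2 and SPRY4. The EGR1, FOS and ETV5 calls held in each fit that left out a library. Falls in this list numbered 2 without control library 1, in a fit where 804 of all 15354 genes fell.

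**Figure D4:**
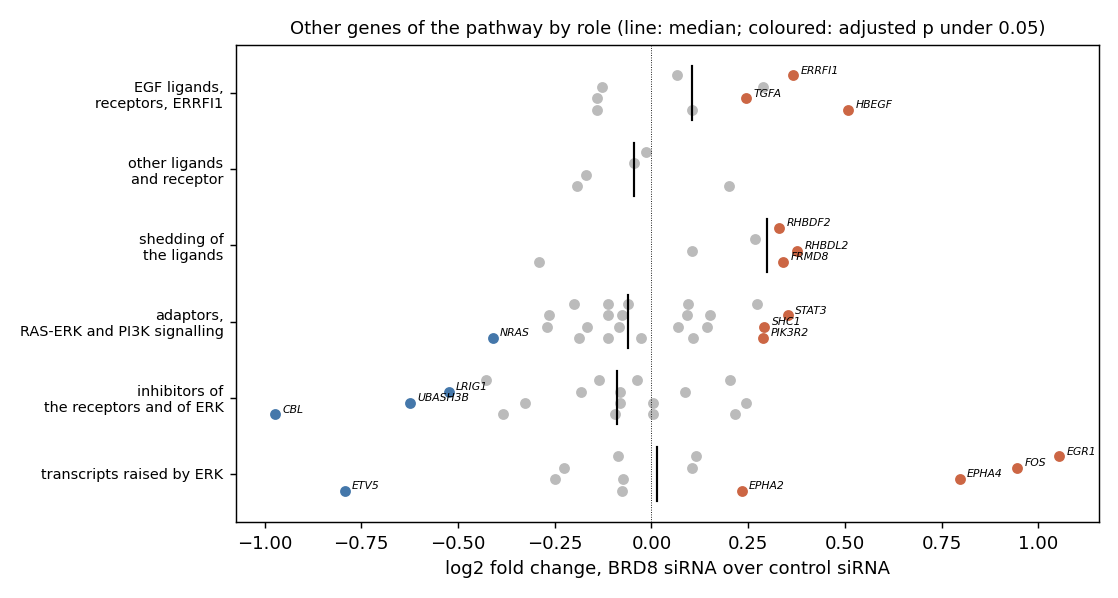
Log2 fold changes (x axis), BRD8 siRNA over control, of the 9 genes and of the tested genes of 5 pathway lists, with list medians as black lines. Grey points did not pass, and the coloured points are the genes with an adjusted p under 0.05, from CBL at -0.97 to EGR1 at 1.05.

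The genes with the most similar pattern were sought by the root mean square difference of log2 values, each centred on its own mean over the 6 libraries, among 13072 genes with a mean of at least 50. For HBEGF, the member with the largest fold change, they were SEMA4G, RAPGEFL1 and GUCD1, at 0.0254, 0.0309 and 0.0347, with log2 fold changes of 0.55, 0.49 and 0.48. For ERBB2, the member with the highest mean, they were SERINC2, POR and ARSE, at 0.0170, 0.0179 and 0.0226, with log2 fold changes of 0.29, 0.28 and 0.29. These are descriptions over 6 libraries in 2 groups, and any gene with a like fold change and little spread comes close.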

How the data were processed

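RNA-seq of 6 Calu3 libraries, 3 per siRNA, was used, with groups and replicate numbers from the sample titles. The extraction protocol in the labels speaks of HBE cells, and the titles were followed. Per the submitters' processing notes the tools were STAR 2.6, featureCounts 1.6.3 of Subread and DESeq2 1.22.1, on hg19. Which annotation, strand setting and filters they used is not given in the sources. The deposited values are a normalized signal: the authors scaled each library's gene counts by its size factor. The authors' log2 fold changes, their errors, test scores and raw and adjusted p-values are in the deposited table too.

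Whole reads were recovered from the value of 1 read per library, and 100% of values were whole within 0.01. The main test, run in R 4.3.3, was limma 3.58.1 with its trend option on log2(normalized count + 1) for the 15354 genes whose mean reached 10, treatment as the only term, adjusted by Benjamini-Hochberg over all of them with a threshold of 0.05. Fold changes on that scale understate low genes. Alternatives were edgeR 4.0.16 (2969 genes called, against 2920) and DESeq2 1.42.0 on recovered reads, other filters, a pseudocount of 5, quantile normalization, removal of a trend on transcript length and GC content, a replicate block and leaving out each library. Chi-square values over genes, between replicates, were 6.63 to 51.8 times their degrees of freedom, above sampling noise. The floor covers counting error only.

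The members and lists were chosen with earlier results of these data known. Named genes are the 9, BRD8, up to 3 genes per list with the smallest adjusted p (2 where none passed), and the 3 nearest in pattern to the member with the largest change and to the one with the highest mean; others are said to be named after their values were seen. Lengths and overlaps came from GENCODE v29 on another build, so only promoter coordinates, from RefSeq, are given.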

Additional observations from a re-analysis of the deposited data

How the results depend on the processing

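Each alternative was run by itself against the limma fit; edgeR and DESeq2 change the test and scaling together, and removal of the trend takes out length and GC together over 14358 genes with a known length. HBEGF and ERRFI1 kept direction and call in all alternatives. TGFA lost its call without a filter on low counts (0.24, adjusted p = 0.0565). ERBB2 passed in DESeq2 (0.29), the authors' deposited table (0.29), after removal of the length and GC trend (0.26) and with the replicate block (0.29, adjusted p = 0.0465). It did not pass in edgeR, with quantile normalization, with the other filters or with the other pseudocount. Deviations of same-numbered libraries correlated at -0.08, 0.34 and 0.15, and those of other control and BRD8 siRNA pairs at -0.36 to 0.33. The labels do not say whether libraries of the same number were prepared together. The block gave 3901 calls against 2920, 9 pathway genes lower, 1 shedding gene lower, and 2 inhibitors higher and 6 lower. After that removal EGFR was -0.04, 2509 of all genes were higher and 2528 lower, as were 17 and 13 pathway genes, 5 and 4 adaptors and kinases, 3 and 6 inhibitors, and 3 ERK-raised transcripts were lower. Inhibitors higher numbered 1 in edgeR, in DESeq2, in the authors' deposited table, with quantile normalization and at a mean of at least 50, and inhibitors lower 5 in DESeq2 and in that table. The cause of these differences was not tested.

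Leaving out 1 library at a time gave 832 to 2445 of all genes higher and 528 to 2784 lower, 2 to 4 members higher and 0 to 2 lower, 4 to 12 pathway genes higher and 4 to 15 lower. By role it gave 0 to 4 shedding genes higher and 0 to 1 lower, 0 to 3 adaptors and kinases higher and 0 to 6 lower, 0 to 1 inhibitors higher and 3 to 7 lower, and 1 to 2 ERK-raised transcripts lower. Log2 fold changes ranged from 0.20 to 0.27 for TGFA, -0.28 to -0.052 for EREG, 0.24 to 0.35 for ERBB2 and -0.48 to 0.089 for EGFR, which was also 0.015 without BRD8 library 2, and -0.0084 to 0.018 for DUSP6. Depth did not limit the 9 genes, while EGF and EPGN were too low to test.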

Other observations

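ERBB2 lies among other abundant genes on chromosome 17. Of the 12 protein-coding genes nearest to it in RefSeq order, 6 on each side, 6 were abundant, and no other passed 469 normalized counts in its control mean. The abundant ones were STARD3, PGAP3, MIEN1, GRB7, GSDMB and ORMDL3, at 38069, 21287, 27809, 32767, 11716 and 41274 normalized counts. Per kilobase they ranked 108, 255, 68, 137, 283 and 104 among 14358 genes. GRB7, an adaptor that binds ERBB2, held 29585, 36427 and 32288 normalized counts in control and 42561, 41629 and 37919 in BRD8 siRNA libraries, which did not overlap, and rose by 0.32 on the log2 scale (adjusted p = 0.0453, limma). That call was lost without a filter on low counts (adjusted p = 0.0769) and when any library but control library 2 was left out (0.0753 to 0.155). STARD3, a lipid transfer protein, and ORMDL3, a regulator of sphingolipid synthesis, had log2 fold changes of -0.09 and 0.05 (adjusted p = 0.545 and 0.748). IKZF3, a lymphoid transcription factor of the same stretch, fell from 365 ± 52.0 to 204 ± 25.0 normalized counts (adjusted p = 0.00462). These genes were looked at after the values of ERBB2 were seen.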
